A study of Mus musculus with 12 samples.

Results

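In cofilin-2 deficient and normal mice, levels of 4 known regulators of myoblast differentiation, miR-221, miR-222, miR-378 and miR-22, were examined in the quadriceps. They were taken by their exact names (mmu-miR-221, mmu-miR-222, mmu-miR-378 and mmu-miR-22) from a table of 1096 mouse miRNA names, and names that end in a star, which mark the less abundant arm of a hairpin, were kept apart. The samples came from 6 mice null for cofilin-2 (Cfl2-KO, numbered KO1 to KO6) and 6 wildtype mice (WT1 to WT6), all of strain C57Bl/6 and all at postnatal day 7. The methods describe 6 pairs of KO and littermate WT mice, and the labels do not say which samples formed a pair. The RNA was that of whole muscle, so that a loss of one kind of cell and a lower level per cell cannot be told apart. The labels give the dye Cy5 for every WT sample and Cy3 for every KO sample, and dye and genotype therefore cannot be told apart for any miRNA here.

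A miRNA is a short RNA that represses the mRNAs it pairs with, mainly through its seed, bases 2 to 8 from its 5′ end. miR-221 and miR-222 are abundant in dividing myoblasts, where they repress the cell cycle inhibitor p27, and their loss accompanies exit from the cell cycle. miR-378 and miR-22 go the other way and accumulate as myoblasts become myotubes. miR-378 represses MyoR, an antagonist of the muscle transcription factor MyoD, and lies in an intron of Ppargc1b, a gene for a coactivator of mitochondrial metabolism. miR-22 is a miRNA of mature heart and skeletal muscle whose targets include the deacetylase HDAC4.

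The mature sequences are shown because miR-221 and miR-222 share their seed, so that they can pair with the same sites, while miR-22 has a seed of its own. The seed is in capitals.
miR-221: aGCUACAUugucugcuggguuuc
miR-222: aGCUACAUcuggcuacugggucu
miR-22: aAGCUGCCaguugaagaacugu
In the RefSeq annotation of GRCm38.p6 miR-221 (the arm now named miR-221-3p) lies at chrX:19146307-19146329 and miR-222 (miR-222-3p) at chrX:19146901-19146923, both on the minus strand. Their hairpins, Mir221 and Mir222, stand 504 bases apart. The mature forms have the same first 8 bases, and 11 of their 23 positions carry the same base. miR-22 (miR-22-3p) lies at chr11:75463772-75463793 on the plus strand, within the noncoding gene Mir22hg. Among the mature miRNAs searched, which were part of the RefSeq table, miR-1928 also carries the seed of miR-221 and miR-222. It was dim on this array, with 7 to 25 in WT and 13 to 28 in KO, and was not tested.

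Values are normalized intensities on a linear scale, as deposited. A typical miRNA of the array was dim, and the median name of a sample was at 12 to 14. Differences between KO and WT were tested with limma on log2 intensities in 370 miRNAs whose intensity averaged 32 or more, a filter that all 4 members passed, with Benjamini-Hochberg adjustment of the p-values. KO1 stood apart from its group. Its mean correlation with the other KO samples was 0.848, where the other 5 had 0.907 to 0.945. Within WT, WT1 had the lowest mean correlation, 0.949, where the other 5 had 0.957 to 0.970. The deviations of WT1 and KO1 from their group means correlated at 0.59, where WT and KO samples with different numbers correlated at -0.43 to 0.48. The reason was not tested. The results for the 4 members are also given without KO1. The defining miRNAs of skeletal muscle (miR-1, listed as miR-1a, miR-133a, miR-133b and miR-206) were bright in all samples, with sums of 81000 to 93229 in WT and 78874 to 105680 in KO. The 7 markers of epithelium, neurons and hepatocytes did not exceed 35 in any sample.

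In the unweighted fit of the groups alone, none of the 4 members passed the threshold of 0.05 with all samples, unadjusted or adjusted. Of all miRNAs tested, 19.5% passed the unadjusted and 1.35% the adjusted threshold. With the sample number as a block, miR-222 had an unadjusted p of 0.0153 and an adjusted p of 0.139 from limma. In that fit 89 of the 370 miRNAs passed the unadjusted threshold and 4 the adjusted threshold. With array weights the adjusted p of miR-222 was 0.00209 from limma, where 115 of the 370 miRNAs passed the adjusted threshold. Without KO1 miR-222 was lower in KO by 1.31 on the log2 scale and was past the adjusted threshold. The estimates for miR-221, miR-378 and miR-22 were below 0 with and without KO1, and each of their intervals included 0. The estimate for miR-378 turned to 0.0326 after quantile normalization. The groups of each member overlapped with all samples, whereas 2.43% of the miRNAs tested had groups that did not.

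**Figure D1:**
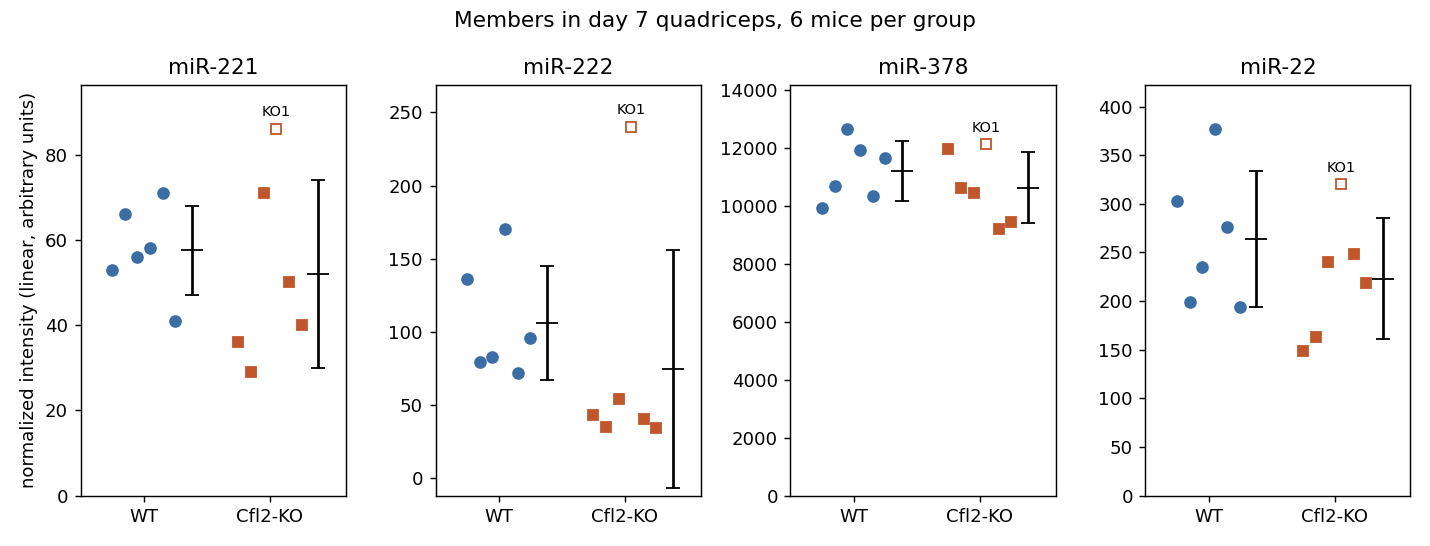
Normalized intensity (linear, arbitrary units) of miR-221, miR-222, miR-378 and miR-22 in each of 6 WT (circles) and 6 Cfl2-KO mice (squares; KO1 open), with the group mean and SD at the right of the points. For miR-222, 5 of the 6 KO samples sit between 34 and 54, below all WT samples, and KO1 sits at 240, above them.

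miR-222, which holds back differentiation together with miR-221, had intensities of 170, 136, 96, 79, 72 and 83 in WT1 to WT6. In KO1 to KO6 it was at 240, 43, 34, 35, 40 and 54. Every KO sample except KO1 lay below every WT sample, and KO1 lay above them all. It averaged 106.0 ± 38.8 in WT and 74.3 ± 81.5 in KO (mean ± SD, n = 6 each), a log2 change of -0.88 (95% interval -1.83 to 0.06; adjusted p = 0.282 from limma). The two-sided exact permutation test over the 924 assignments of the samples gave p = 0.0974.

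Without KO1 the mean of miR-222 in KO was 41.2 ± 8.04 (SD, n = 5), and the ratio of the means, KO over WT, was 0.389 in place of 0.701. The log2 change was then -1.31 (95% interval -1.85 to -0.77; adjusted p = 0.0103 from limma), where 7.3% of all miRNAs were lower past the adjusted threshold in the same fit. The groups no longer overlapped, which without KO1 was so for 3.78% of the miRNAs tested in this direction. The exact permutation test gave p = 0.0022, the smallest that 6 samples against 5 allow. KO1 was the only KO sample not below every WT sample, so leaving it out fixed this outcome. The permutation test without KO1 therefore adds nothing to the lack of overlap. KO1 exceeded the mean of the other KO samples by 2.56 on the log2 scale for miR-222, the sixth largest excess of KO1 among the 370 miRNAs, and leaving out any other sample left the adjusted p above the threshold.

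miR-221 had intensities of 58, 53, 41, 66, 71 and 56 in WT1 to WT6. In KO1 to KO6 it was at 86, 36, 40, 29, 50 and 71. As with its seed partner, KO1 was the highest of all samples, which was so for 19.5% of the miRNAs tested. Of the other 5 KO samples only 3 lay below all WT samples. It averaged 57.5 ± 10.5 in WT and 52.0 ± 22.1 in KO (mean ± SD, n = 6 each), and the log2 change was -0.23 (95% interval -0.82 to 0.36; adjusted p = 0.712 from limma). Without KO1 it was -0.40 (95% interval -0.92 to 0.13; adjusted p = 0.282 from limma). The interval with all samples spans ratios of KO over WT from 0.568 to 1.28. These intensities lie near the limit of 32 set for the test, and 1 KO sample, KO4 at 29, was under it.

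The other arms of the 2 hairpins were at the bottom of the scale. miR-221* reached 10 in WT1 and was between 0 and 4 in all other samples. miR-222* was between 3 and 8 in WT and between 1 and 7 in KO. Both were left out of the test as too dim, and their values give no information on the direction of a change.

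**Figure D2:**
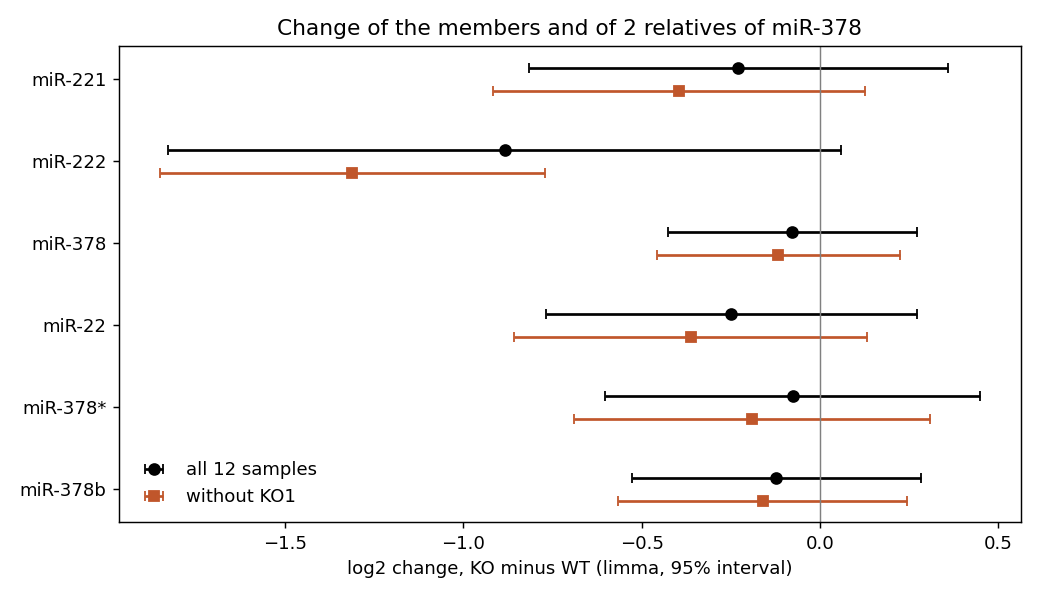
Log2 change, KO minus WT, of the 4 members and of miR-378* and miR-378b, as points with 95% intervals from limma, with all 12 samples (black circles) and without KO1 (squares). The interval of miR-222 lies wholly below 0 without KO1, and the other intervals include 0.

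miR-378 was nearly level among the mice. It had intensities of 11940, 9942, 11645, 10688, 10346 and 12662 in WT1 to WT6. In KO1 to KO6 it was at 12134, 11977, 9458, 10620, 9204 and 10436. The highest WT sample exceeded the lowest by a ratio of 1.27, and the highest KO sample exceeded the lowest by 1.32. KO1 did not stand apart here, being close to KO2. It averaged 11204 ± 1045 in WT and 10638 ± 1226 in KO (mean ± SD, n = 6 each), and the log2 change was -0.08 (95% interval -0.43 to 0.27; adjusted p = 0.865 from limma). Without KO1 it was -0.12 (95% interval -0.46 to 0.22; adjusted p = 0.645 from limma). The interval with all samples corresponds to ratios of KO over WT from 0.744 to 1.21. Its adjusted p stayed between 0.387 and 0.978 in all settings tried.

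A pair of related names allowed a comparison within the family. miR-378*, the other arm of the same hairpin, averaged 124.5 ± 22.4 in WT and 122.0 ± 38.3 in KO (mean ± SD, n = 6 each), a log2 change of -0.08 (95% interval -0.60 to 0.45; adjusted p = 0.918 from limma). Its highest value was 173 in KO1 and its lowest 66 in KO4. miR-378b, a relative from a gene of its own, averaged 6134 ± 935 in WT and 5661 ± 998 in KO (mean ± SD, n = 6 each), a log2 change of -0.12 (95% interval -0.53 to 0.28; adjusted p = 0.774 from limma). Neither differed between the groups beyond the spread of the mice. Probes for members of one family can share signal, so that the values of miR-378 and miR-378b are not certain to be separate measurements.

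miR-22 had intensities of 377, 303, 194, 199, 276 and 235 in WT1 to WT6. In KO1 to KO6 it was at 320, 149, 219, 163, 248 and 240. The groups overlapped over most of their range, and only KO2 and KO4 lay below all WT samples. KO1 was again the highest of its group, below WT1, and it was the highest KO sample for 34.6% of the miRNAs tested. miR-22 averaged 264.0 ± 69.9 in WT and 223.2 ± 62.3 in KO (mean ± SD, n = 6 each), with a log2 change of -0.25 (95% interval -0.77 to 0.27; adjusted p = 0.653 from limma). Without KO1 the log2 change was -0.36 (95% interval -0.86 to 0.13; adjusted p = 0.288 from limma), and the exact permutation tests gave p = 0.294 with KO1 and p = 0.128 without it. The star arm, miR-22*, was too dim for the test, at 4 to 19 in WT and 6 to 39 in KO.

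**Figure D3:**
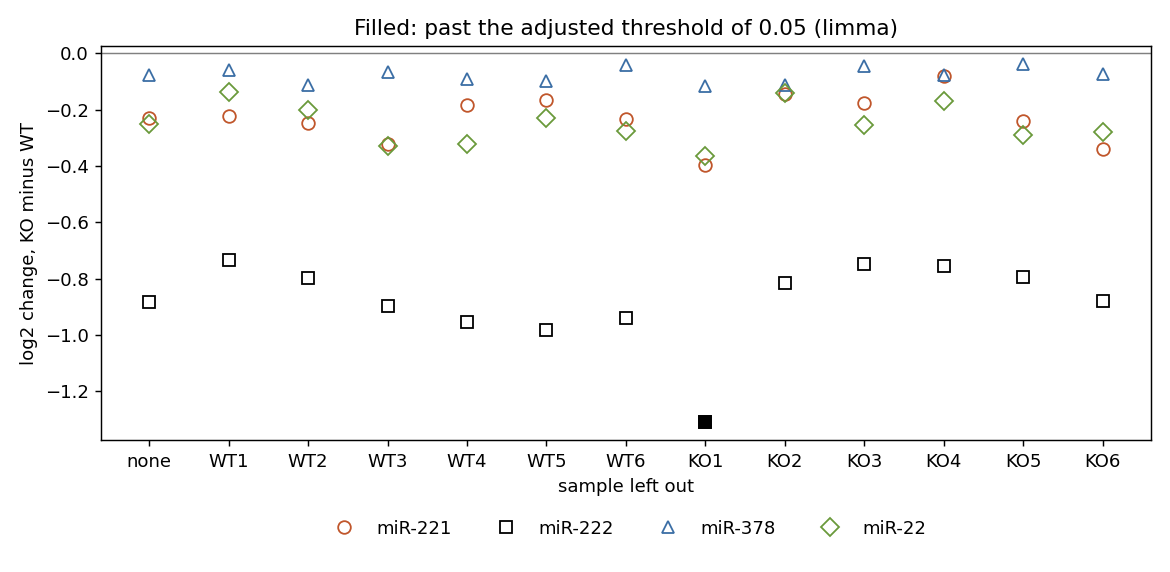
Log2 change, KO minus WT, of the 4 members in the limma fit with all samples (none) and with each of the 12 samples left out in turn; filled symbols are past the adjusted threshold of 0.05. The value of miR-222 moves from -0.88 to -1.31 when KO1 is left out and is past the threshold in that fit alone, and all values lie below 0.

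The way each member varied from mouse to mouse was described by Pearson's r of log2 intensities within a group, without a test. Among the 6 KO mice, r was 0.79 between miR-221 and miR-222 and 0.89 between miR-221 and miR-22. Among the 6 WT mice, the first of these was -0.32 and the second 0.27, so that the seed partners did not vary together in WT. miR-378 and miR-22, which both rise in differentiating myoblasts, had r of -0.09 in WT and -0.09 in KO. Once each group's mean was taken off, r of miR-221 with miR-222 was 0.60 over the 12 samples and 0.15 over the 11 samples without KO1. For miR-221 with miR-22 these were 0.67 and 0.53. All of these values pool the WT with the KO mice, so they do not show r among the KO mice without KO1.

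By the same measure over the 12 samples after removal of group means, the miRNAs most like miR-222 were miR-674* (r = 0.95), miR-151-5p (r = 0.95) and miR-28c (r = 0.93), which without KO1 had r of 0.82, 0.77 and 0.73. Those most like miR-221 were miR-100 (r = 0.86), miR-378* (r = 0.83) and miR-199a-5p (r = 0.82). Their r without KO1 was 0.77, 0.76 and 0.72. miR-378 was closest to miR-674 (r = 0.81), miR-214 (r = 0.80) and miR-191 (r = 0.79), and without KO1 to the same miRNAs at 0.76, 0.74 and 0.73. The relative of miR-378, miR-378b, came sixth (r = 0.75), while the other arm of the miR-378 hairpin, miR-378*, had r of -0.08. miR-22 was closest to miR-1983 (r = 0.89), miR-378* (r = 0.86) and miR-18a (r = 0.86). Their r without KO1 was 0.85, 0.81 and 0.82. The samples share one normalization, and the dim miRNAs share a low signal, so that such likeness describes these 12 arrays.

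Markers of other cells in the muscle were set beside these values. miR-126-3p, a miRNA of endothelial cells, in which miR-221 and miR-222 are also known to be present, was at 2230 to 4741 in WT and at 760 to 2705 in KO (log2 change -1.20, adjusted p = 0.0615 from limma, and 0.0242 without KO1 or 0.0301 without KO6). It was at 2238 in KO1 and at 760, 1210, 1296, 1565 and 2705 in KO2 to KO6. The second endothelial marker, miR-126-5p, was at 1 to 6 in all samples. The 2 smooth muscle markers, miR-143 and miR-145, summed to 3555 to 4909 in WT and 3241 to 6241 in KO, and KO1 had the highest sum of all samples. The 2 differed in their change. miR-143 had a log2 change of -0.02 (adjusted p = 0.977 from limma). miR-145 was at 841 to 1742 in WT and 403 to 1307 in KO. Its log2 change was -0.60 (adjusted p = 0.261 from limma), and -0.74 without KO1 (adjusted p = 0.0905 from limma). The 5 blood cell markers summed to 77 to 438 in WT and 31 to 339 in KO, with KO1 the highest KO sample. Of these, miR-451, of red blood cells, was at 43 to 417 in WT and 16 to 318 in KO, and the other 4 stayed at or below 15 in every sample. The part of these cells in the values of miR-222 was not tested.

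The other miRNAs with a known part in myoblast differentiation were taken from a list of 24 names, of which 23 were in the table and 17 were bright enough to be tested; the other 6 (miR-208b, miR-499, miR-29a, miR-29b, miR-29c and miR-155) averaged under 32 in both groups. The list was chosen with earlier results of these data known, so its counts are a description and not a test. Of the 17, 8 were lower in KO at the unadjusted threshold and none was higher, where 9.73% of all miRNAs tested were lower and 9.73% higher. Without KO1, 7 of the 17 were lower, where 15.4% of all miRNAs were. The median log2 change was -0.48 in the list and -0.08 over all 370 miRNAs, and without KO1 it was -0.44 and -0.04. One, miR-181b, which is induced in differentiating myoblasts, was past the adjusted threshold, with a log2 change of -1.32 (adjusted p = 0.0113 from limma).

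The 8 included miRNAs that rise with or promote differentiation and miRNAs that fall with it or inhibit it. Of the 13 tested that rise or promote, 5 were lower at the unadjusted threshold: miR-148a, which acts on the kinase ROCK1, miR-181b and miR-181a, miR-27b, which acts on the myogenic progenitor factor Pax3, and miR-503, which acts on the cell cycle phosphatase Cdc25A. Their log2 changes ran from -0.51 for miR-503 to -1.69 for miR-148a. Like miR-222, miR-148a had 5 KO samples below every WT sample and 1 far above the rest of its group. It was at 71 to 189 in WT, at 11 to 52 in KO1 to KO5 and at 162 in KO6, and its adjusted p was 0.0908 with all samples, 0.0448 without KO1 and 0.0113 without KO6. The unadjusted p of miR-503 was 0.0489 and was no longer past the threshold when any of 8 of the 12 samples, KO1 among them, was left out. Of the 4 tested that fall or inhibit, 3 were lower: miR-23a (log2 change -0.80), which represses adult myosin heavy chains, miR-27a (-0.89) and miR-125b-5p (-0.48), which represses Igf2. Their adjusted p-values were between 0.127 and 0.160 from limma, and miR-31, which represses Myf5, had a log2 change of -0.14 and an unadjusted p of 0.728. Without WT2 or without WT3, miR-125b-5p was not past the unadjusted threshold. miR-23a and miR-27a come from one primary transcript and are not separate loci. Probes for related names, such as miR-181a and miR-181b or miR-27a and miR-27b, can share signal. The 8 are therefore not certain to be separate measurements, within a list or between the lists.

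The 4 muscle-specific miRNAs of the list that were tested, of a kind strongly induced in differentiation, did not pass the unadjusted threshold in the main fit. With array weights miR-133a and miR-133b were lower past the unadjusted threshold, where 156 of the 370 miRNAs passed it. Neither passed the adjusted threshold in that fit. miR-1a averaged 45284 ± 4979 in WT and 51675 ± 10690 in KO (mean ± SD, n = 6 each), a log2 change of 0.17 (adjusted p = 0.685 from limma). miR-206, the muscle miRNA of developing and regenerating fibres, had a log2 change of -0.08 (adjusted p = 0.855). miR-133a had a log2 change of -0.35 (adjusted p = 0.493) and miR-133b one of -0.38 (adjusted p = 0.476). For these 4 miRNAs, as for miR-378 and miR-22, no difference was detectable in the main fit with 6 mice in each group.

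**Figure D4:**
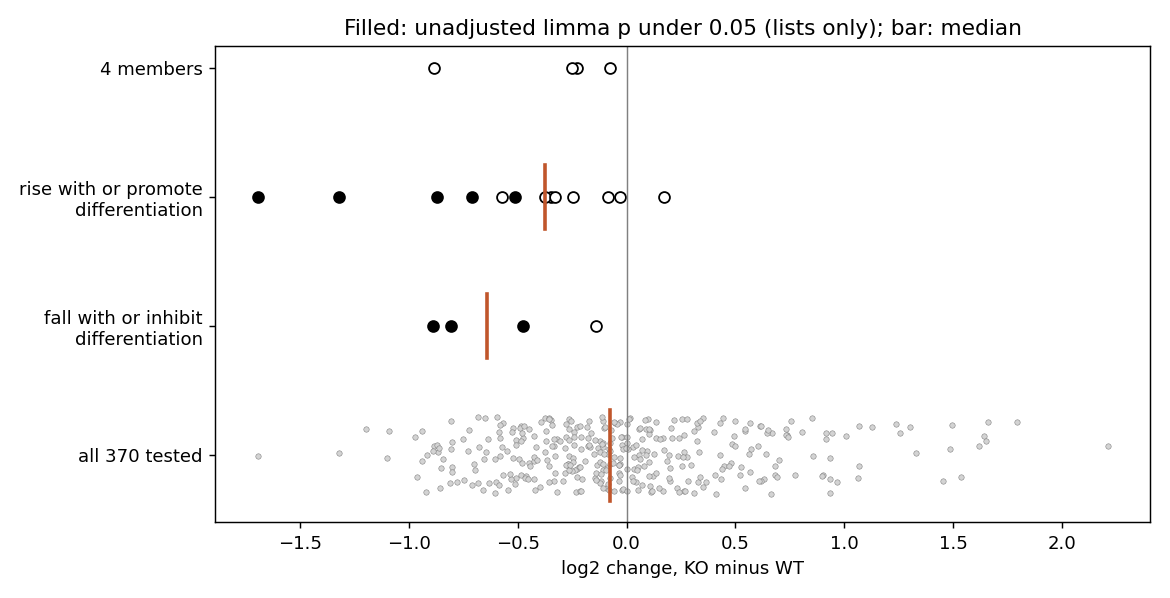
Log2 change, KO minus WT, of the 4 members, of the 13 tested miRNAs that rise with or promote myoblast differentiation, of the 4 tested that fall with it or inhibit it, and of all 370 tested miRNAs (grey). Filled circles have an unadjusted limma p under 0.05 and bars are medians; 16 of the 17 listed miRNAs lie below 0, whereas the grey points spread to both sides of a median of -0.08.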

How the data were processed

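Total RNA of quadriceps was profiled by an array provider on probes for miRBase version 17, and the authors deposited normalized intensities, linear and in whole numbers; the normalization method is not given in the sources used here. Intensities carry no counts, and the 6 samples per group limit the precision. Values under 1 were raised to 1, converted to log2 and tested with limma 3.58.1 (R 4.3.3; lmFit, eBayes, two-sided) over the 370 of 1096 miRNAs averaging 32 or more, with Benjamini-Hochberg adjustment. Intervals are 95% intervals of that fit. Permutation tests enumerated all assignments of the samples. The test was checked on simulated data. miRNAs named are the 4 members, their arms and relatives, listed miRNAs past the unadjusted threshold, muscle-specific miRNAs, the 3 closest to each member, and markers. miR-1928 was named after its seed was seen, and miR-31 to complete its list. miR-486 of the list was not analysed here. Members and lists were chosen with earlier results of these data known. Sequences are from RefSeq (GRCm38.p6) and are given for 3 of the 4 members, without miR-378, and the seed search covered part of its mature miRNAs.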

Additional observations from a re-analysis of the deposited data

Results flagged for a closer look

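Samples far from the other 5 of their group were sought for the members, their tested relatives and the named miRNAs of the differentiation list, in 38 groups, with Dixon's test on the log2 scale (critical value 0.625). Chance flags about 1 group in 20, or 1.9 of 38, and 2 were found. For miR-222, KO1 had 240 where the rest of the KO group had 34 to 54, a gap of 0.763 of the range. For miR-206, KO1 had 29194 where the rest had 21266 to 23172, a gap of 0.729 of the range.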

How the results depend on the processing

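The 4 members were tested under 12 alternatives and with each of the 12 samples left out. Those with a mean intensity under 500, which are all but miR-378, had no value under that filter. miR-222 had a log2 change of -1.39 (adjusted p = 0.00209) with array weights, in which KO1 had the lowest weight, 0.156, and -0.47 (adjusted p = 0.405) with a pseudocount of 50. With a sample left out it ran from -1.31 to -0.73. Array weights and the fit without KO1 alone took it past the adjusted threshold. miR-378 changed sign under quantile normalization, to 0.0326, with an adjusted p of 0.948, and the cause was not tested. miR-221 and miR-22 kept their sign and did not pass the adjusted threshold in any setting. The log2 change of miR-221, -0.23, was -0.10 with a pseudocount of 50 and -0.40 to -0.08 with a sample left out, the ends being without KO1 and without KO4. That of miR-22, -0.25, was -0.09 after cyclic loess and -0.36 to -0.14 with a sample left out.

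Of the differentiation list 8 miRNAs passed the unadjusted threshold, 5 of the 11 tested when the filter was raised to 500, and 6 to 8 with a sample left out. The adjusted count, 1 by limma, was 0 with no filter, where 6 passed unadjusted, 0 with the replicate block and cyclic loess together, where 6 passed unadjusted, 9 with array weights, and 1 to 2 with a sample left out (2 without KO1 or KO6, through miR-148a). Over all miRNAs the adjusted count of 5 ran from 1 with no filter to 115 with array weights. Samples with the same number correlated at -0.45 to 0.59 in their deviations from the group means, above 0.1 in 3 of 6 numbers. Samples with different numbers correlated at -0.43 to 0.48. For 2 of the numbers, 1 and 5, each sample was the best match of the other. These values cannot decide whether the numbers mark littermate pairs, and the main fit did not use the numbers. With the replicate block the log2 change of miR-222 was the same -0.88, with an unadjusted p of 0.0153 and an adjusted p of 0.139.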
